A study of Spodoptera frugiperda with 3 samples.

Results

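The gene expression of Verson's glands of the pupa was compared with that of Verson's glands of the last larval instar (L6) of the fall armyworm (FAW), *Spodoptera frugiperda*, with 1 RNA sequencing library a stage. The genes compared were the protein-coding genes with 20 or more exon reads in either library. Genes of ribosomal RNA (rRNA) and of the mitochondrial sequence were left out. There were 10289 such genes, of 18811 protein-coding genes and 20644 genes listed in all. Levels are in TPM, a unit in which the reads of a gene are corrected for the length of its exons and all genes of a library add up to 1000000. After the genes named above were left out, the TPM of each library was scaled up again to 1000000, and this is called rescaled TPM. The ratio given throughout is the log2 of rescaled TPM + 1 in the pupa over L6, so that a positive ratio means a higher value in the pupa. Adding 1 understates the ratio of low genes.

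Both groups were glands of the FAW-SID1 strain, which carries green fluorescent protein and the *Caenorhabditis elegans* SID1 gene under the hr5-IE1 and IE1 promoters of a baculovirus. These promoters are active in many tissues, but the glands fluoresce most, and the fluorescing glands were dissected out. Glands without the transgene were not analysed here. The pupal glands and the L6 glands are separate dissections, and the age of the animals within a stage and the number of animals pooled for each are not given. The study reports that the glands go through programmed cell death and are gone soon after pupation. The library of prepupal glands is used only for its place beside the pair. With 1 library a stage there is no replicate check, so no p-value is given and a gene is called higher or lower when it differed at least 4-fold.

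In caterpillars, each Verson's gland is built of a large secretory cell and the smaller cells of a saccule and a duct. The glands have been linked to the fluid that loosens the old cuticle at a molt and to proteins of the hemolymph, the blood of the insect, and their exact role is not settled. Insect cuticle is built of chitin and of many cuticular proteins, some of them typical of the soft larval cuticle and others of the rigid cuticle of the pupa.

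The pupa library had 18620715 exon reads and the L6 library 21366500. Of these, 37.1% in the pupa and 87.8% in L6 lay on rRNA genes, which left 11716156 reads outside rRNA in the pupa and 2610753 in L6. The median gene of the comparison had 160 reads in the pupa and 39 reads in L6, so low values are less precise in L6. There was no read in L6 for 437 of the genes and none in the pupa for 65. Both libraries had 20 or more reads for 6374 genes, and the others passed the minimum through 1 library only. Just inside the minimum, the 447 genes with 20 to 24 reads in their higher library had a median log2 ratio of -0.78, and just outside it, the 570 genes with 15 to 19 reads had -0.59. For a gene with 1 kb of exons, 3 reads are 0.236 rescaled TPM in the pupa and 1.19 in L6. Intervals on folds below are exact 95% intervals of the reads (Clopper-Pearson), and they cover counting error only.

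In the pupal gland 1225 genes were at least 4-fold higher than in the L6 gland, 11.9% of the 10289 compared. A further 1145 genes, 11.1%, were at least 4-fold lower, and 5263 genes (51.2%) lay within 2-fold. The median log2 ratio was -0.16, with quartiles of -1.05 and 0.87. The higher genes made up 27.6% of the rescaled TPM of the pupa library and 2.10% of that of L6. The lower genes made up 1.14% of the pupa library and 38.0% of the L6 library. A protein name other than uncharacterized was at hand for 1783 genes, of which 208 were higher and 211 lower. Of these names, 1564 come from a table the study chose on these same glands, so counts of named genes are no independent evidence of direction. In a bulk sample, fewer cells of a type and less RNA per cell cannot be told apart.

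The balance of the 2 directions rested on the scaling. Of the genes past 4-fold, 51.7% were higher in the pupa with rescaled TPM. The share was 67.6% with the TMM factors of edgeR and 87.3% with TPM as deposited, where the rRNA of L6 lowers every other gene. These scalings moved the median log2 ratio of the genes to 0.32 and 0.86, and directions below are relative to a median of -0.16.

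**Figure D1:**
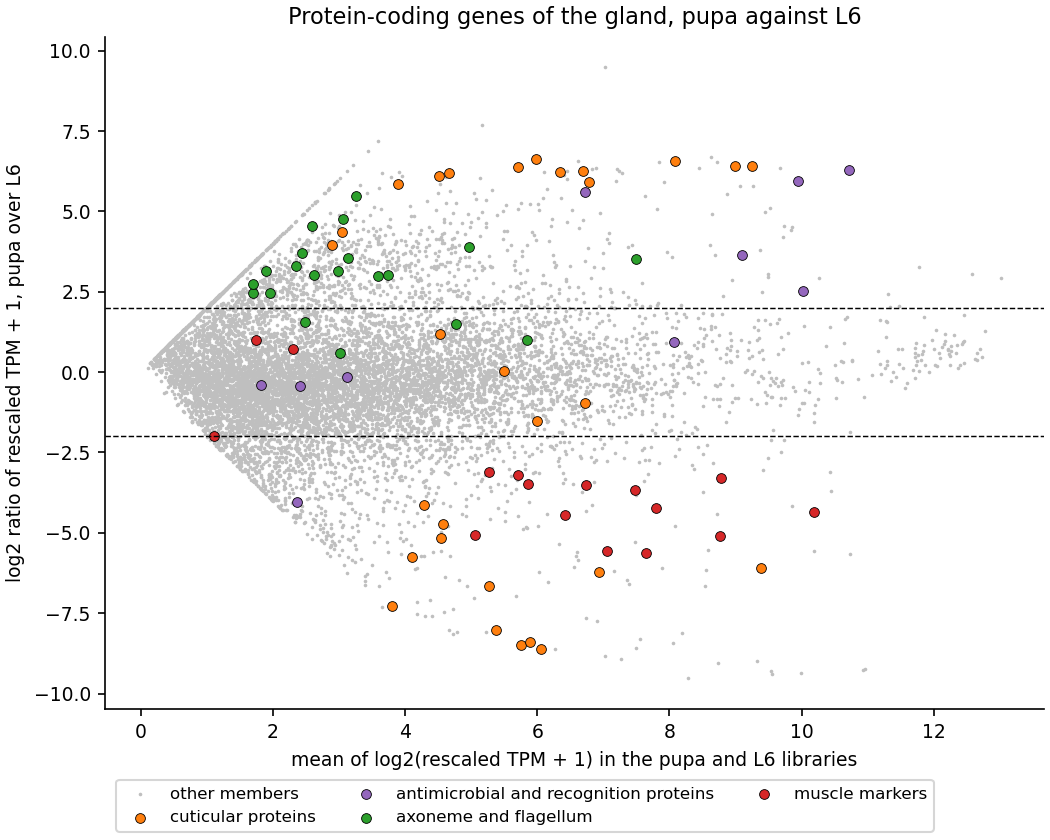
Log2 ratio of rescaled TPM + 1 in the pupa over L6 (vertical axis) against the mean log2 level of both libraries (horizontal axis) for the 10289 protein-coding genes, 1 point a gene. Dashed lines mark 4-fold. Cuticular proteins lie on both sides, 13 above and 12 below, the muscle markers mostly below (13 of 16), and the axoneme genes all above 0.

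Cuticular proteins differed widely between the stages, in both directions. Of 36 cuticular protein genes, 29 passed the read minimum. Of these, 13 were higher in the pupa, 12 were lower and 4 passed neither way, against 11.9% higher and 11.1% lower over all genes. The median log2 ratio was 0.04, against -0.16 over all genes, but it stood between 2 far groups, the nearest called genes lying at 3.96 and -4.14. TPM as deposited gave 14 higher and 12 lower. The summed level of the 29 genes was 17378 rescaled TPM in the pupa and 12199.9 in L6, or 1.42 times as much in the pupa.

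Of the genes higher in the pupa, the most abundant were named for rigid cuticle. Larval/pupal rigid cuticle protein 66-like LOC118273654 had 5584 rescaled TPM in the pupa, against 65.2 in L6, from 43612 and 101 reads. That was 85.7-fold higher (70.5 to 105). A further gene of the same name, LOC118273370, had 4710 rescaled TPM in the pupa, against 54.5 in L6, but only 10.7% of its reads mapped uniquely. Its value depends on how shared reads were assigned. Cuticle protein 21-like LOC118272373 had 2632 rescaled TPM in the pupa, against 26.9 in L6, and LOC118272371 of the same name had 625 in the pupa, against 5.34 in L6. Pupal cuticle protein-like LOC118274730 had 857 rescaled TPM in the pupa and 13.2 in L6, and LOC118275060 of the same name had 478 in the pupa and 4.76 in L6. The lowest of the 13 was an obstructor-E-like gene, LOC118263124, whose family binds chitin, with 28.2 rescaled TPM in the pupa and 0.881 in L6 from 2 reads. Obstructor-E-like genes stood on both sides of the list.

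Among the genes lower in the pupa were those named for larval cuticle. Larval cuticle protein LCP-30-like LOC118282342 had 2.35 rescaled TPM in the pupa, against 1326 in L6, from 35 and 3911 reads. LCP-17-like LOC118282344 had 2.21 in the pupa, against 1085 in L6. The 3 LCP-22-like genes were lower as well, with log2 ratios from -8.50 to -5.75. Cuticle protein CP14.6-like LOC118269457 was the most abundant cuticular gene of L6, with 79.6 rescaled TPM in the pupa and 5508 in L6. Flexible cuticle protein 12-like LOC118268277 had 13.2 in the pupa and 1049.8 in L6, and endocuticle structural glycoprotein SgAbd-5-like LOC118282288 had 1.56 in the pupa and 671 in L6. The names flexible and endocuticle belong to the soft, extensible layers of cuticle. In the prepupa the whole list summed to only 473 rescaled TPM, below both other stages.

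**Figure D2:**
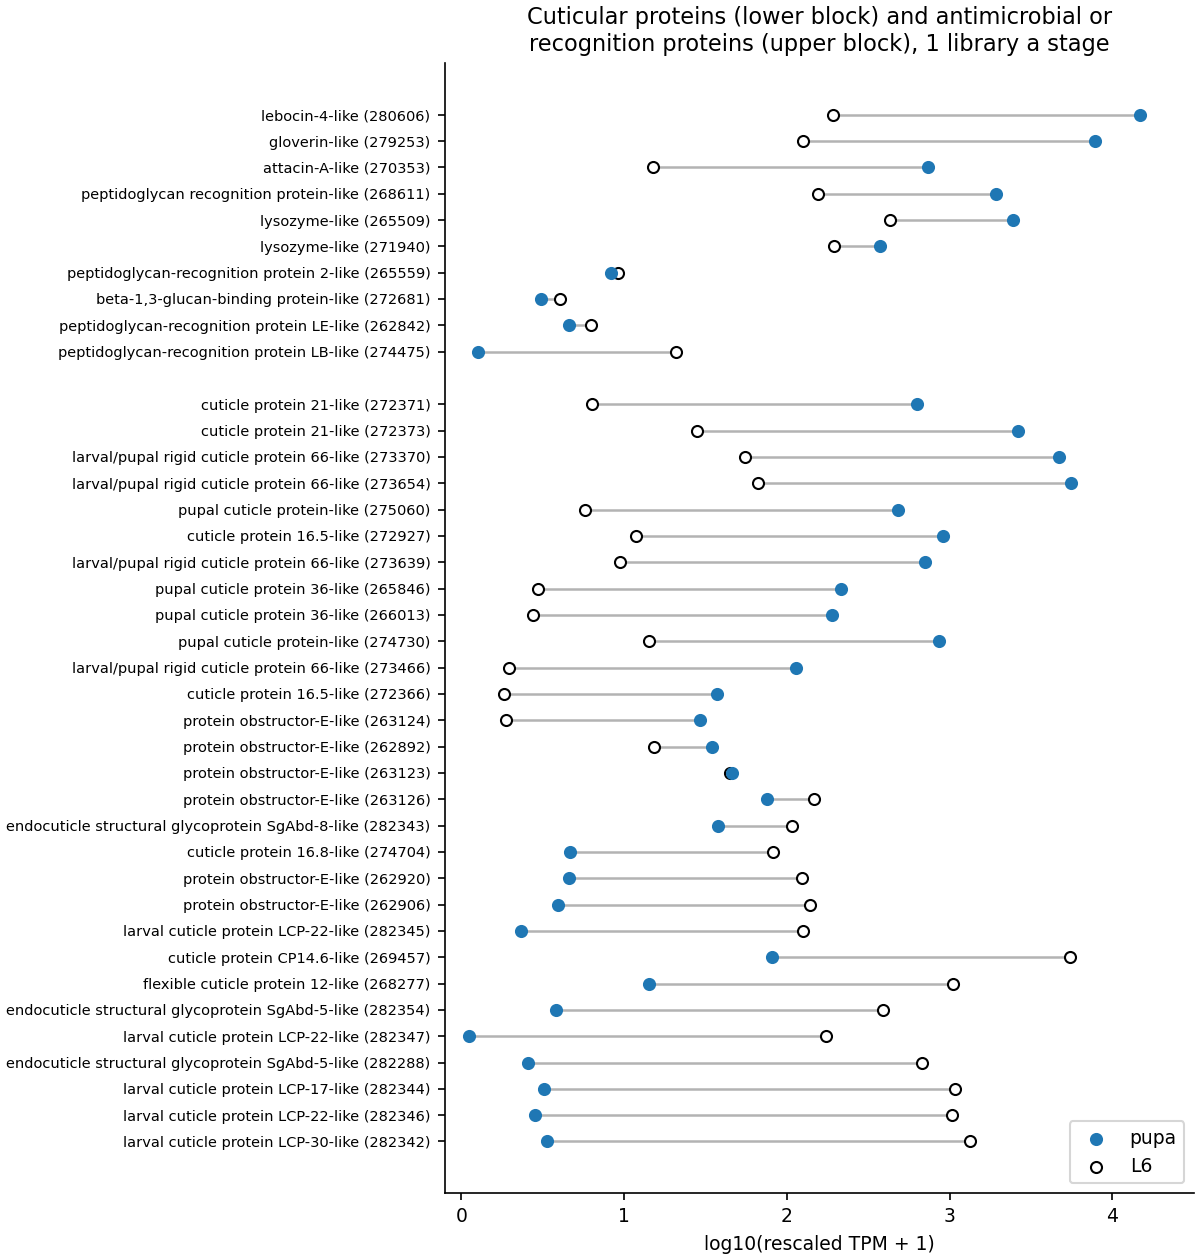
Rescaled TPM + 1 on a log10 axis for each cuticular protein gene (lower block) and each antimicrobial or recognition gene (upper block), filled points for the pupa and open points for L6, with the last 6 digits of the gene identifier. The lines of 25 of the 29 cuticular genes are longer than 4-fold, in both directions, and lebocin, gloverin and attacin lie far to the right in the pupa.

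Antimicrobial peptides were abundant in the pupal gland. Lebocin and gloverin peptides are released into the hemolymph of moths when the immune system is switched on, and peptidoglycan recognition proteins detect bacterial cell wall. Of 10 antimicrobial and recognition genes, 5 were higher in the pupa and 1 was lower, against 11.9% higher and 11.1% lower over all genes. The median log2 ratio of the 10 was 1.73. Lebocin-4-like LOC118280606 had 14838 rescaled TPM in the pupa, against 190.3 in L6, which was 78.0-fold higher (70.3 to 86.7). Such a fold lies near the limit of the largest ratios described below, which the interval does not cover. Only 2 genes had a higher level than lebocin-4-like in the pupa library. Gloverin-like LOC118279253 had 7786 in the pupa, against 124 in L6. Attacin-A-like LOC118270353 had 737 in the pupa and 14.1 in L6, but none of its reads mapped uniquely. Lysozyme-like LOC118265509, an enzyme that cuts bacterial cell wall, had 2468 in the pupa and 432 in L6, and the peptidoglycan recognition protein-like gene LOC118268611 had 1933 in the pupa and 153.9 in L6. Other recognition genes were not higher. Peptidoglycan-recognition protein LB-like LOC118274475, a type that dampens the response in flies, had 0.271 rescaled TPM in the pupa and 19.8 in L6 from 4 and 58 reads, and the LE-like, 2-like and beta-1,3-glucan-binding genes had log2 ratios between -0.45 and -0.16.

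Lipid carriers and storage proteins, many of them of the hemolymph, were also among the higher genes. This list was matched by name and is not confined to hemolymph proteins. Among its higher genes were an odorant-binding protein 56a-like gene and allergen Tha p 1-like LOC118265697, with 634.8 rescaled TPM in the pupa and 42.0 in L6. Of the 22 genes of the list, 8 were higher in the pupa and 2 lower, against 11.9% higher and 11.1% lower over all genes. The median log2 ratio of the 22 was 1.71. TMM gave 14 higher and 1 lower, TPM as deposited 16 and 0, and a pseudocount of 5 gave 6 and 0. Apolipophorin-3 LOC118274630, which loads lipid onto lipoprotein particles, was the most abundant, with 10387 rescaled TPM in the pupa and 3028 in L6, a 3.43-fold difference that did not pass 4-fold. Basic juvenile hormone-suppressible protein 2 LOC118272014, a storage hexamer of late larvae, had 917 in the pupa and 67.4 in L6. An apolipoprotein D-like gene, LOC118276696, had 286 in the pupa and 3.33 in L6, and the odorant-binding protein 56a-like gene LOC118278025 had 128.7 in the pupa and 0.871 in L6 from 2 reads. Fat body makes many of these proteins. The 6 fat body markers of the files, all of which are also in this list, summed to 12298 rescaled TPM in the pupa and 3366 in L6 (388 in the prepupa), 2 of the 6 were higher, and none was at 0. Apolipophorin-3 is 1 of the 6 and made up most of the pupa and L6 sums. Of the 2 higher markers, basic juvenile hormone-suppressible protein 1-like LOC118276436 had only 2.60% of its reads uniquely mapped. The part of fat body in these results and in those of the antimicrobial genes was not tested.

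Muscle genes were lower in the pupal gland. Of 16 muscle markers, 13 were lower in the pupa and none was higher, against 11.1% lower and 11.9% higher over all genes. Their median log2 ratio was -3.59, and their sum was 722 rescaled TPM in the pupa and 14474 in L6, or 20.05 times as much in L6. Myosin regulatory light chain 2 LOC118270279 had 258 in the pupa and 5230.2 in L6, with 28.5% of its reads uniquely mapped. Troponin I LOC118263900, which holds the thin filament off until calcium arrives, had 73.0 in the pupa and 2535 in L6. A pair of titin-like genes, with log2 ratios of 0.73 and 0.98, stood against the rest, and none of the 16 was at 0 in either library. The sum in the prepupa was 1381, so that L6 had the highest muscle level of the series. Even with TPM as deposited, 8 of the 16 were lower in the pupa.

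Enzymes of central carbon metabolism were lower with the muscle markers. This list was put together after the values were seen. Of 20 genes of glycolysis and the citric acid cycle, 14 were lower in the pupa and 4 higher, with a median log2 ratio of -2.51. Over all genes, 11.1% were lower and 11.9% higher. Glyceraldehyde-3-phosphate dehydrogenase LOC118271716 had 349 rescaled TPM in the pupa and 1954 in L6. L-lactate dehydrogenase-like LOC118272480 had 4.49 in the pupa and 85.4 in L6. The 4 higher genes were further copies by name, an enolase-like gene and 3 malate dehydrogenase genes, at 14.6 to 58.4 rescaled TPM in the pupa and 1.52 to 5.29 in L6, and the enolase-like copy had no uniquely mapped read. Scaling bore on this count: TMM left 7 lower, and TPM as deposited 3. The muscle markers moved in the same direction, and their part in this result was not tested.

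The genes of oxidative phosphorylation split into 2 sets. Of 15 nuclear genes for subunits of the respiratory chain and ATP synthase, 8 were higher in the pupa, at log2 ratios from 3.60 to 5.24, and the other 7 lay between -2.42 and -0.72, 2 of them past 4-fold. Of all genes compared, 11.9% were higher and 11.1% lower. TMM and TPM as deposited kept 8 of the list higher and left 0 lower. The 8 were at a low level in L6, such as cytochrome c oxidase subunit 6B1-like LOC118272914 with 396.8 rescaled TPM in the pupa and 9.501 in L6, and cytochrome b-c1 complex subunit 8-like LOC118263318 with 270.7 in the pupa and 13.1 in L6. The 7 were the abundant genes of the list in L6, such as ATP synthase lipid-binding protein LOC118269627 with 885 in the pupa and 3239 in L6, and ATP synthase subunit alpha LOC118265881 with 82.3 in the pupa and 445 in L6. No gene of the list fell between the sets. The 8 had 376 to 926 bases of exon and the 7 had 641 to 2066, so that the ranges overlap. Genes of up to 1000 bases had higher median ratios than longer ones over the whole comparison. The part of exon length in the split was not tested. The sum over the list was 2955 in the pupa and 5414 in L6, although its median log2 ratio was 3.60, so the median and the sum differ in sign.

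Axoneme genes formed another group high in the pupa, again one put together after the values were seen. The axoneme is the microtubule core of cilia and flagella, which in insects is found in sperm and in certain sense organs. All 20 named genes of the group had a ratio above 0. At least 4-fold higher were 16 of them and none was lower, against 11.9% higher and 11.1% lower over all genes. The sum of the 20 was 1209 rescaled TPM in the pupa and 137.0 in L6. Cilia- and flagella-associated protein 99-like LOC118263870 had 42.3 in the pupa and 0.602 in L6 from 1063 and 3 reads, and the interval of its fold ran from 23.99 to 341. Axonemal dynein heavy chain 8-like LOC118271598, a motor protein, had 6.71 in the pupa and 0.386 in L6. Intraflagellar transport protein 20 LOC118266979 had 118.6 in the pupa and 7.13 in L6. Protamine-2-like LOC118269828, named after a sperm chromatin protein and not an axoneme protein, had 609 in the pupa, 52.0 in L6 and 61.1 in the prepupa. It is counted among the 20 genes and is the largest part of their sum in the pupa. The prepupa summed to 243, nearer to L6. The number past 4-fold fell to 10 with a pseudocount of 5, since these genes are low. Which cells carried these transcripts was not tested.

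**Figure D3:**
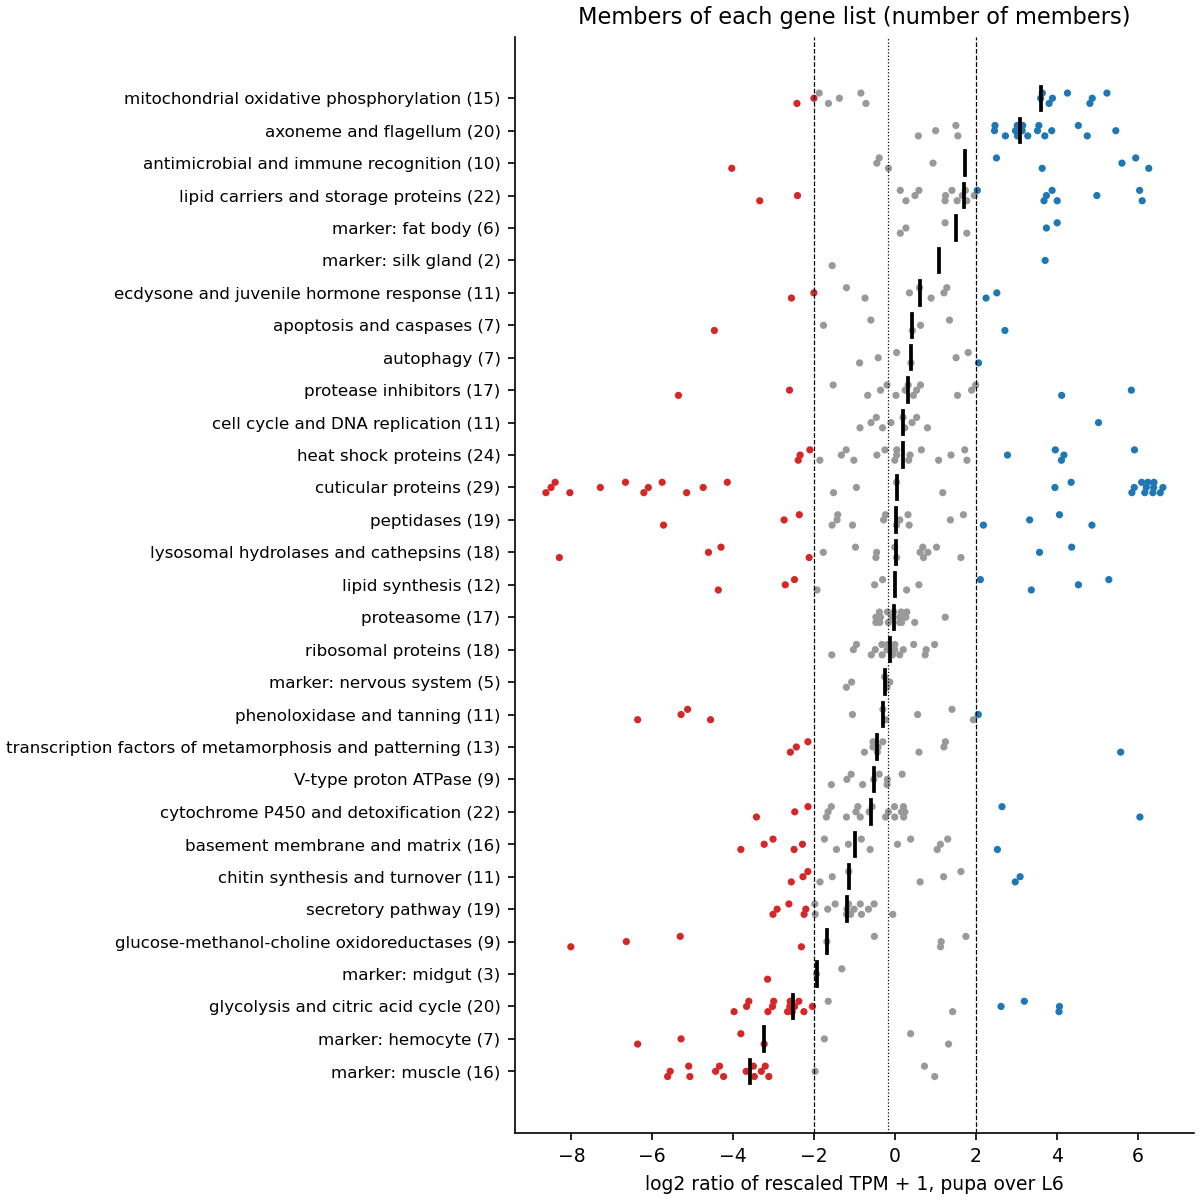
Log2 ratio of rescaled TPM + 1, pupa over L6, for each member of each gene list, with the number of members in brackets and black bars for medians. Blue points are at least 4-fold higher in the pupa and red points at least 4-fold lower, dashed lines mark 4-fold and the dotted line the median of all genes, -0.16. Ribosomal, proteasome and V-ATPase genes stay within 4-fold, and oxidative phosphorylation splits into 2 groups.

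The secretory pathway, through which a gland exports its product, was lower in the pupa without a single exception in sign. All 19 genes had a ratio below 0, with a median of -1.19. At least 4-fold lower were 5 and none was higher, against 11.1% lower and 11.9% higher over all genes. Sec61 subunit alpha LOC118262163, the channel into the endoplasmic reticulum, had 18.7 rescaled TPM in the pupa and 158.3 in L6. Protein disulfide-isomerase-like LOC118272650, which folds secreted proteins, had 108.0 in the pupa and 669 in L6. TPM as deposited left none past 4-fold and a median of -0.017, and the TMM median was -0.72, both still below the median of all genes under those scalings. The sum in the prepupa, 6761, was above the 847 of the pupa and the 2608 of L6. V-type proton ATPase genes, which acidify vesicles, stayed within 4-fold in all 9 cases, with a median of -0.52.

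Machinery common to all cells differed little. None of 18 ribosomal protein genes and none of 17 proteasome genes passed 4-fold, with medians of -0.12 and -0.03. Among all genes, 11.9% were higher and 11.1% lower. The ribosomal genes ranged from -1.56 for P0-like LOC118262435 to 0.98 for L30 LOC118262517. Of 11 cell cycle and replication genes, 1 passed, the kinetochore protein nuf2 LOC118273070, with 372 rescaled TPM in the pupa and 10.4 in L6.

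With rescaled TPM, genes of programmed cell death and self-digestion, which dismantle larval organs at metamorphosis, mostly stayed within 4-fold, as did 7919 of all 10289 genes. The counts below are to be read beside 11.9% higher and 11.1% lower over all genes, and they moved with the scaling. TPM as deposited gave 3 apoptosis genes higher and 1 lower, and 3 autophagy genes higher and 0 lower. It gave 6 lysosomal genes higher and 3 lower. With TMM these counts were 1 and 1, 3 and 0, and 3 and 3. Caspase-1-like LOC118267265, an executioner protease, had 60.4 rescaled TPM in the pupa and 23.1 in L6, a 2.62-fold difference (2.23 to 3.09). Of 7 apoptosis genes, 1 was higher, apoptosis-inducing factor 1 LOC118270882 with 34.0 in the pupa and 4.31 in L6, and 1 was lower, apoptosis-inducing factor 3-like LOC118274687 with 5.49 in the pupa and 142 in L6. Of 7 autophagy genes, 1 was higher, the gene for gamma-aminobutyric acid receptor-associated protein (LOC118272711), an ATG8 protein that coats the autophagosome. It had 5842 in the pupa and 1391 in L6, a 4.199-fold difference (4.04 to 4.37) that is close to the threshold. Of 18 lysosomal genes, 2 were higher and 4 lower. The most abundant in L6, pro-cathepsin H-like LOC118267144, had 9.62 in the pupa and 3336 in L6, while the 2 higher ones, both cathepsin B-like, had no uniquely mapped read.

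Hormone-response genes were mostly low in both libraries. Ecdysone, the molting hormone, and juvenile hormone act through nuclear receptors and early transcription factors. Of 11 such genes, 2 were higher and 2 lower. This count and that of the patterning factors below are to be read beside 11.9% higher and 11.1% lower over all genes. One of the higher genes, mushroom body large-type Kenyon cell-specific protein 1-like LOC118270242, whose fly relative E93 marks the adult program, had 8.77 rescaled TPM in the pupa and 0.702 in L6, with 6.09% of reads unique, and the other was juvenile hormone esterase-like LOC118275677, with 3.16% of reads unique. The receptor FTZ-F1-like LOC118267427 had 0.778 in the pupa, against 6.13 in L6 and 108.3 in the prepupa. The ecdysone receptor LOC118267067 had 14.0 in the pupa and 5.17 in L6, within 4-fold. The hormone-response counts became 2 higher and 1 lower with TMM, 4 and 0 with TPM as deposited and 0 and 0 with a pseudocount of 5. Among 13 patterning and metamorphosis factors, the homeobox gene Mohawk-like LOC118273125 had 155.7 in the pupa and 2.27 in L6 and was higher, and grainyhead, spalt-major and GATA-binding factor A were lower, with log2 ratios from -2.58 to -2.15. TMM left 1 higher and 1 lower, and TPM as deposited gave 3 higher and 0 lower.

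Enzymes and inhibitors that act on proteins and cuticle moved both ways, as did all genes (11.9% higher and 11.1% lower). Matrix metalloproteinase-2-like LOC118267038, a protease that cuts basement membrane in remodelling tissue, had 225 rescaled TPM in the pupa and 6.73 in L6. Of 19 peptidases it was 1 of 4 higher, against 3 lower, led by venom protease-like LOC118278218 with 12.2 in the pupa and 696 in L6. Basement membrane genes were lower in 5 of 16 cases and higher in 1, with 3 lower under TMM and 1 with TPM as deposited. SPARC-like LOC118269687, a collagen-binding protein, had 116 in the pupa and 944 in L6, and both collagen IV chains were lower too. Of 11 genes for tanning and melanin, 4 were lower and 1 higher. Phenoloxidase subunit 2-like LOC118274553 had 1.68 in the pupa and 219 in L6, and subunit 1-like LOC118274789 had 1.11 in the pupa and 81.4 in L6. Phenoloxidases are made by hemocytes, the blood cells, and are 2 of the 7 hemocyte markers. These markers summed to 73.0 in the pupa and 516 in L6, with 4 lower and none higher. The study, however, counts phenoloxidase among the molting fluid genes high in these glands, and cites earlier work that found phenoloxidase activity in the gland fluid. The part of hemocytes was not tested. Of 9 glucose-methanol-choline oxidoreductases, 4 were lower, led by LOC118264744 with 0.586 in the pupa and 409 in L6.

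Several lists had few calls, in both directions, to be read beside 11.9% higher and 11.1% lower over all genes, and their counts moved with the scaling. Of 24 heat shock genes, 5 were higher and 3 lower, but TMM gave 7 higher and 0 lower and TPM as deposited 10 and 0. Protein lethal(2)essential for life-like LOC118280750, a small heat shock protein, had 1883 rescaled TPM in the pupa and 30.0 in L6, while heat shock protein beta-1-like LOC118263694 had 122.6 in the pupa and 647 in L6. Of 22 detoxification genes, 2 were higher and 3 lower, and TPM as deposited left 0 lower. Cytochrome P450 9e2-like LOC118264635 had 199.7 in the pupa and 2.01 in L6, while cytochrome P450 6B2-like LOC118273800 had 2.18 in the pupa and 33.1 in L6. Of 12 lipid synthesis genes, 4 were higher and 3 lower, and TMM gave 4 and 2. Of 17 protease inhibitors, 2 were higher and 2 lower, and TMM gave 4 and 2. Of 11 chitin enzymes, 2 were higher and 3 lower, but TMM gave 3 higher and 0 lower and TPM as deposited 4 and 0. Chitinase-like protein EN03 LOC118276216, the most abundant of the chitin enzymes in the pupa, had 1351 in the pupa and 586 in L6.

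No marker of Verson's gland cells themselves was among the lists, so only markers of other tissues could be looked at. Most protein names came from a table of genes higher in these glands than in midgut, fat body and epidermis. Markers of those tissues that are low in the glands could enter the lists only through the remaining names. The marker levels therefore cannot decide whether the tissue label holds, and they are given as a description only. Besides muscle, fat body and hemocytes, the 5 nervous system markers ranged from -1.20 to -0.13, and the 3 midgut markers summed to 7.93 in the pupa and 33.1 in L6, with 1 lower. Of 2 silk gland markers, fibroin light chain-like LOC118271397 had 12.1 rescaled TPM in the pupa and no read in L6, which is at least 12.4-fold higher against 3 reads. The other, silk gland factor 3-like LOC118280989, had 11.5 in the pupa, 35.6 in L6 and 126 in the prepupa. No tracheal marker was found by name.

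The genes with the largest ratios in L6's favour were mostly without a protein name. LOC118268279 had 80.1 rescaled TPM in the pupa and 48817 in L6, and LOC118261853 had 77.7 in the pupa and 48027 in L6, the 2 highest levels in L6. LOC118282167 had 28.2 in the pupa, 19443.5 in L6 and no read in the prepupa. In the pupa's favour the largest ratio was 9.48, of LOC118272554, with 3490.0 in the pupa and 3.88 in L6, none of whose reads mapped uniquely. Calphotin-like LOC118274334, named after a calcium-binding protein of fly photoreceptors, had 4033 in the pupa and 38.0 in L6. The most abundant genes of the pupa, LOC118269569 with 22964 in the pupa and 2988 in L6, and LOC118265131 with 17694 in the pupa and 2117 in L6, differed by less, 7.68-fold and 8.36-fold.

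The largest ratios gathered at a limit. Among the 216 genes with at least 2000 reads in L6, none had fewer pupa reads than 0.628% of its L6 reads, and 16 lay under 1%, with a median of 0.822%. Among the 309 genes with at least 5000 reads in the pupa, 26 had L6 reads under 0.3% of their pupa reads, with a median of 0.232%. The lowest 2 of these had 0.0221% and 0.0586%, and the next, calphotin-like LOC118274334, had 0.187%. In the same genes the prepupa library reached 0 reads in 11 of the 216 and 5 of the 309. Cuticular genes lay at both edges, with 0.895% for LCP-30-like LOC118282342 and 0.232% for rigid cuticle protein 66-like LOC118273654. The cause of the edges was not tested. Subtracting the median shares, an alternative chosen after seeing the data, gave 1264 higher and 1162 lower genes.

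**Figure D4:**
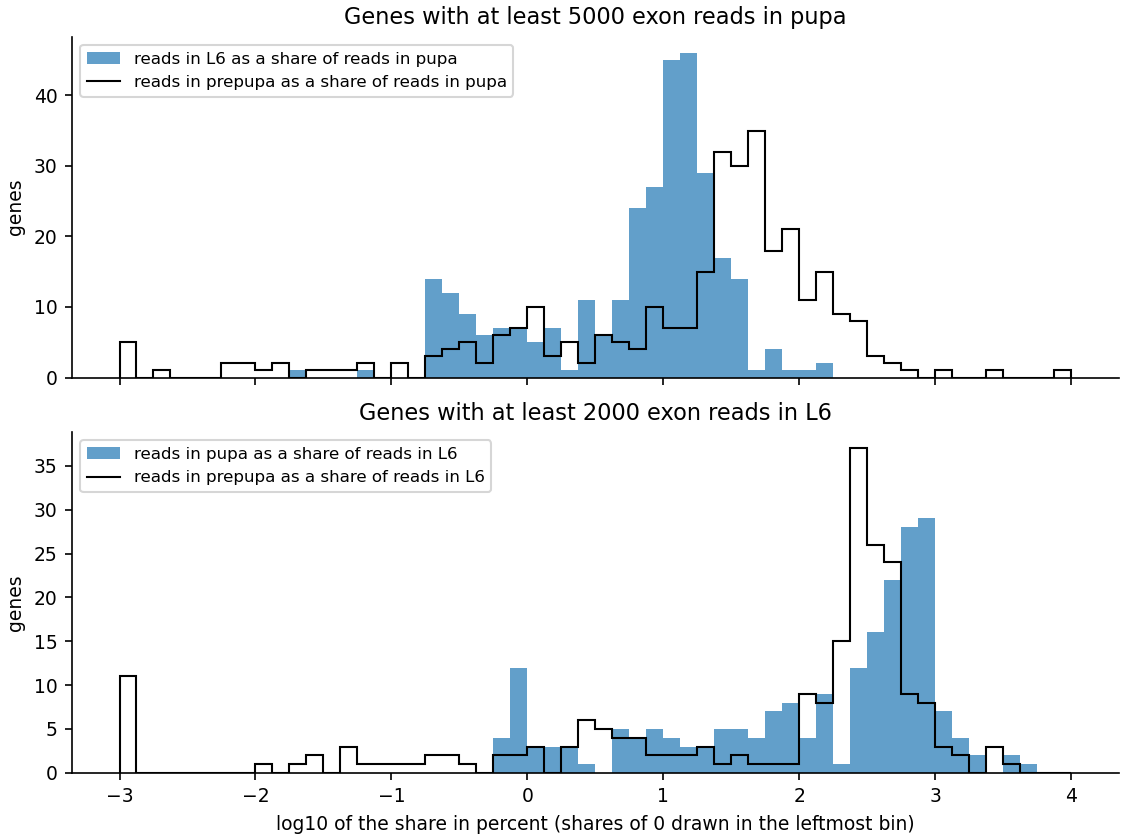
Number of genes by the reads in the other library as a share of the reads in the library where the gene is high (log10 of percent), for genes with at least 5000 reads in the pupa (upper panel) and at least 2000 in L6 (lower panel). Filled bars give the pupa and L6 pair, which stops sharply at 0.187% above, apart from 2 genes, and at 0.628% below, and lines give the prepupa, which reaches 0.

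Ratios also varied with exon length. The median log2 ratio was 0.49 for the 124 genes of up to 500 bases of exon, 0.59 for the 1559 genes with over 500 and up to 1000 bases of exon, of which 27.8% were higher, and -0.41 for the 2064 genes over 4000 bases, of which 2.37% were higher. Genes higher in the pupa had a median of 1155 bases in 4 exons, and genes lower had 1891 bases in 7 exons. The prepupa set against L6 ran the other way, with a median of -0.50 in genes of over 500 and up to 1000 bases and 1.01 over 4000 bases. Taking out the median of each length band, also chosen after seeing the data, left 1220 higher and 993 lower. The cause was not tested.

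**Figure D5:**
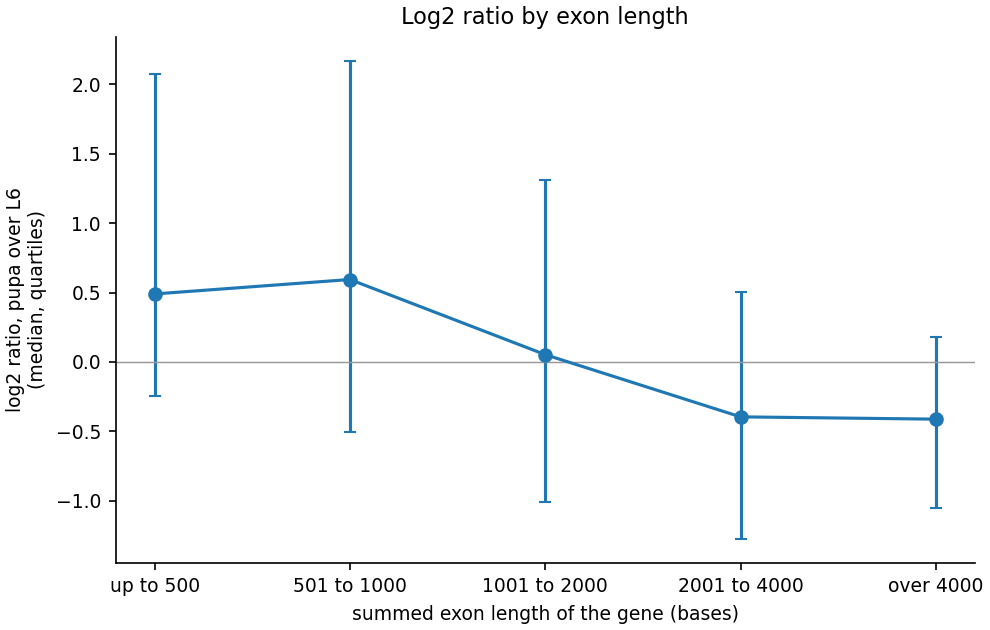
Median log2 ratio of rescaled TPM + 1, pupa over L6, by the summed exon length of the gene, with bars from the lower to the upper quartile. The median is 0.49 up to 500 bases, 0.59 at over 500 and up to 1000 bases and -0.41 over 4000 bases.

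Some called genes lay next to each other in the genome. In 45 places 4 or more neighbouring genes of the comparison were called in 1 direction, 28 runs of higher genes and 17 runs of lower genes, and they held 11.2% of the higher and 7.16% of the lower genes. The other called genes lay outside such runs. On sequence NC_049727.1 of the files, at 12994780 to 13082963, lay 7 higher genes, the 4 rigid cuticle protein 66-like genes among them, with a median log2 ratio of 6.19. The larval cuticle genes LCP-17, LCP-22 and LCP-30 lay in a run of 7 lower genes on NC_049712.1, at 9765977 to 9857710, with a median of -7.28. Next to it, at 9893431 to 9918125, a run of 5 genes without protein names summed to 134.8 rescaled TPM in the pupa and 86331 in L6, that is 8.63% of the L6 total. A run of 8 higher genes on NC_049728.1, at 5535456 to 5616286, held both calphotin-like genes, with 15318 in the pupa and 173 in L6. Neighbouring members of a family share sequence, and in the 4 runs uniquely mapped reads were 62.2% to 99.9% of the exon reads. The genome build is not named in the sources used here.

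The prepupa, the stage between, did not lie between for many genes. Of the 1225 higher genes, the prepupa lay between L6 and the pupa in 814 (66.4%), below L6 in 308 and above the pupa in 103. In 754 (61.6%) it was at least 4-fold under the pupa. Of the 1145 lower genes it lay between in 420 (36.7%), above L6 in 329 and below the pupa in 396. Intron reads, a sign of unspliced RNA, were low. Only genes with 20 or more gene reads in the library were used. Higher genes had a median of 0.729% of gene reads on introns in the pupa and 1.79% in L6, the latter from 283 of the 1225 genes. Lower genes had 4.17% in the pupa and 3.96% in L6, and genes called neither way 2.11% in the pupa and 4.55% in L6.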

How the data were processed

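RNA of Verson's glands of L6, prepupa and pupa of the FAW-SID1 strain was sequenced as 1 library a stage. Mapping to the genome of the species was done by the authors with CLC Genomics Workbench, and they deposited, per gene, counts of exon, intron and gene reads, total and uniquely mapped. How multi-mapped reads were handled, and which genome build and annotation served, is not given in the sources used. The deposited TPM were computed by the authors from total exon reads over all genes listed, rRNA genes included, and the deposited RPKM are proportional to them within a library and were not used. The genes of the mitochondrial sequence other than rRNA took 0% of the deposited TPM in every library.

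Rows of rRNA and of the mitochondrial sequence were dropped and TPM was rescaled to 1000000, which multiplied the deposited TPM by 1.22 in the pupa and by 3.64 in L6. Log2 ratios used a pseudocount of 1, and a gene was called at 4-fold (a log2 ratio of 2 or -2). Protein names came from the tables of the study, joined by gene identifier, and gene lists were matched on these names, so genes without a name are in no list. The members and lists were chosen with earlier results of these data known. Genes named in the text are those with the largest ratios and levels among genes with 100 or more reads, the most abundant called members of each list, and genes of runs of 4 or more neighbours. Others were chosen after their values were seen.

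With 1 library a stage no test was run. TMM factors were from edgeR 4.0.16 in R 4.3.3, other steps used Python 3.11.15 with numpy 2.4.6, pandas 2.3.3 and scipy 1.17.1, and the ratio steps were tested on simulated data. Alternatives were TPM as deposited, TMM, a shift of the median to 0, unique reads only, CPM, a depth-scaled read count, without length, pseudocounts of 0.1 and 5, read minimums of 1 and 100, rescaling without the 10 highest genes of either library and 2 other thresholds. No protein, promoter or transcript sequence was used here.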

Additional observations from a re-analysis of the deposited data

Results flagged for a closer look

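Long non-coding RNA (lncRNA) genes lay outside the comparison, which took protein-coding genes only, and they were counted apart. Of 951 lncRNA genes listed, 257 had 20 or more exon reads in either library. Of these, 99 were at least 4-fold higher in the pupa than in L6 and 29 were at least 4-fold lower. Their median log2 ratio was 1.16, against -0.16 for the protein-coding genes. Of the protein-coding genes, 11.9% were higher and 11.1% lower. The lncRNA counts rest on rescaled TPM alone, with no other scaling tried and no account taken of exon length. There is 1 library a stage and no control gland, so the difference was not tested.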

How the results depend on the processing

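No paired analysis was possible because each stage has 1 library, and no replicate could be left out. Of the 320 genes of the named set past 4-fold, none changed sign under any of 14 alternatives. These genes were picked past 4-fold and the scalings shift all ratios by less than that, so this count says little about direction. In every alternative that gave them a value, 182 stayed past 4-fold. A pseudocount of 5 took 101 of them under 4-fold, TPM as deposited 63, TMM 27, unique reads 27 and the length-band median 17. The counts over all genes, 1225 higher and 1145 lower with a median log2 ratio of -0.16, moved with the scaling, the pseudocount and the threshold. TPM as deposited gave 2229 higher and 325 lower with a median of 0.86, because every gene but rRNA is then multiplied less in L6, and TMM gave 1651 higher and 790 lower with a median of 0.32. The shift of the median to 0, by construction, and the length-band median, chosen after seeing the data, both gave a median of 0. The median was -0.053 with unique reads, -0.034 with CPM and -0.35 without the 10 highest genes of either library. A pseudocount of 5 gave 605 higher and 518 lower. A minimum of 100 reads gave 1076 higher and 620 lower with a median of 0.048, from fewer genes. A 2-fold threshold gave 2346 higher and 2680 lower, and a 10-fold threshold 475 and 399. Members with 50% or more unique reads, also chosen after seeing the data, numbered 8995, with 992 higher and 1020 lower. Depth limits L6 most, since the pupa had 11716156 reads outside rRNA and L6 2610753, so low genes of L6 rest on few reads. The cause of these moves was not tested beyond what each setting does by construction.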
